A study of Mus musculus with 5 samples.

Results

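The phagocyte NADPH oxidase is described here through 6 genes: Cybb, Cyba, Ncf1, Ncf4, Rac1 and Rac2. They were taken by symbol from the table of 14462 rows, and all 6 had a row and passed the filter on low values that left 12777 genes for testing. RNA came from CD45-sorted lung cells of mice with tumours labelled MC38/MC38, MC38 being a mouse colon adenocarcinoma line. The lungs were taken at day 3 after irradiation. There were 2 libraries from the irradiated group (IR) and 3 from the control group (ctrl). Both groups carried the tumours. The labels give no radiation dose, strain, age or sex, and do not say what the ctrl mice received or whether each library is 1 animal, so p-values measure the spread between these libraries, which may be technical.

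The oxidase moves electrons from NADPH in the cytosol across a membrane to oxygen, which makes superoxide inside the phagosome or outside the cell. Its catalytic core is a flavocytochrome of 2 chains in the membrane, gp91phox (Cybb) and p22phox (Cyba). In a resting cell cytosolic subunits, p47phox (Ncf1) and p40phox (Ncf4) among them, lie apart from it, and on stimulation they join it together with a Rac GTPase. Neutrophils carry large amounts of it, monocytes, macrophages and B cells less, and its loss causes chronic granulomatous disease.

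Every value was taken as a count that the authors had scaled before deposit, because the values carry 1 decimal and have similar medians. The totals were 7544034 and 8414753 in the IR libraries and 7232126 to 7425923 in the ctrl libraries. IR replicate 2 stood apart on the first principal component, at 131.5, against -6.00 for IR replicate 1 and -51.9 to -30.5 for the ctrl libraries. The CD45 gene Ptprc was abundant in every library, at 17369 and 27247 in IR and 15543 to 15842 in ctrl. Lung epithelial RNA was present as well: its 10 markers summed to 117490 and 56987 in IR and 22906 to 26814 in ctrl. Most of that was Scgb1a1, the secretoglobin of club cells (103972 and 50989 in IR, 18790 to 23115 in ctrl), while Epcam was lower in both IR libraries (45.8 and 74.8, against 133 to 185 in ctrl). The 4 endothelial markers in the table summed to 767 and 575 in IR and 576 to 914 in ctrl, and the 4 fibroblast markers to 0.9 and 61.3 in IR and 0 to 28.3 in ctrl. The summed neutrophil markers (11 genes) were 81629 and 159580 in IR and 33732 to 58740 in ctrl. All 11 were higher in both IR libraries, as were 15.2% of all genes. The limma test was passed by 4 of them, Csf3r, Cxcr2, Retnlg and Trem1, beside 1.14% of all genes passing as higher. Under 16 alternatives Csf3r did not pass in 4, Cxcr2 in 3, and Retnlg and Trem1 in 5 each. Of other cells, 8 monocyte markers summed to 24533 and 20698 in IR and 14875 to 22331 in ctrl (median log2 fold change 0.11). Most of each sum was Fn1, with 15271 and 13066 in IR and 8691 to 12903 in ctrl. The 9 alveolar macrophage markers summed to 13104 and 12428 in IR and 13024 to 14050 in ctrl, of which Chil3 made up 8962 and 6769 in IR and 6483 to 7413 in ctrl. Of the 9, 7 had negative fold changes, with a median of -0.53, and 5 were lower in both IR libraries, as were 16.3% of all genes. The limma test was passed by 0 of the 9 (4 at an unadjusted p under 0.05, among them Fabp4 at -2.90). The 8 T cell markers summed to 2792 and 2486 in IR and 4164 to 4578 in ctrl, all 8 with negative fold changes (median -0.73). Of the 8, 1 passed, Cd3g, beside 0.360% of all genes passing as lower, and it did not pass in 5 of the 16 alternatives.

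None of the 6 oxidase genes passed the limma test at an adjusted p under 0.05, a threshold that 1.50% of the 12777 genes passed (1.14% higher and 0.360% lower in IR); at an unadjusted p under 0.05 it was 2 of the 6, Ncf1 and Rac2, against 15.0% of all genes. The 6 did not share a direction: 5 had a positive fold change, as did 46.8% of all genes. The groups did not overlap for 5 of the 6, against 31.5% of all genes. Cyba, Ncf1, Rac1 and Rac2 were higher in both IR libraries than in every ctrl library, which held for 15.2% of all genes, Cybb was lower in both IR libraries, which held for 16.3%, and the groups overlapped for Ncf4. The median log2 fold change of the 6 genes was 0.44, from -0.31 for Cybb to 0.66 for Rac2, beside a median of -0.05 over all genes tested. A bulk library cannot tell a change in the number of cells of a type from a change in RNA per cell.

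**Figure D1:**
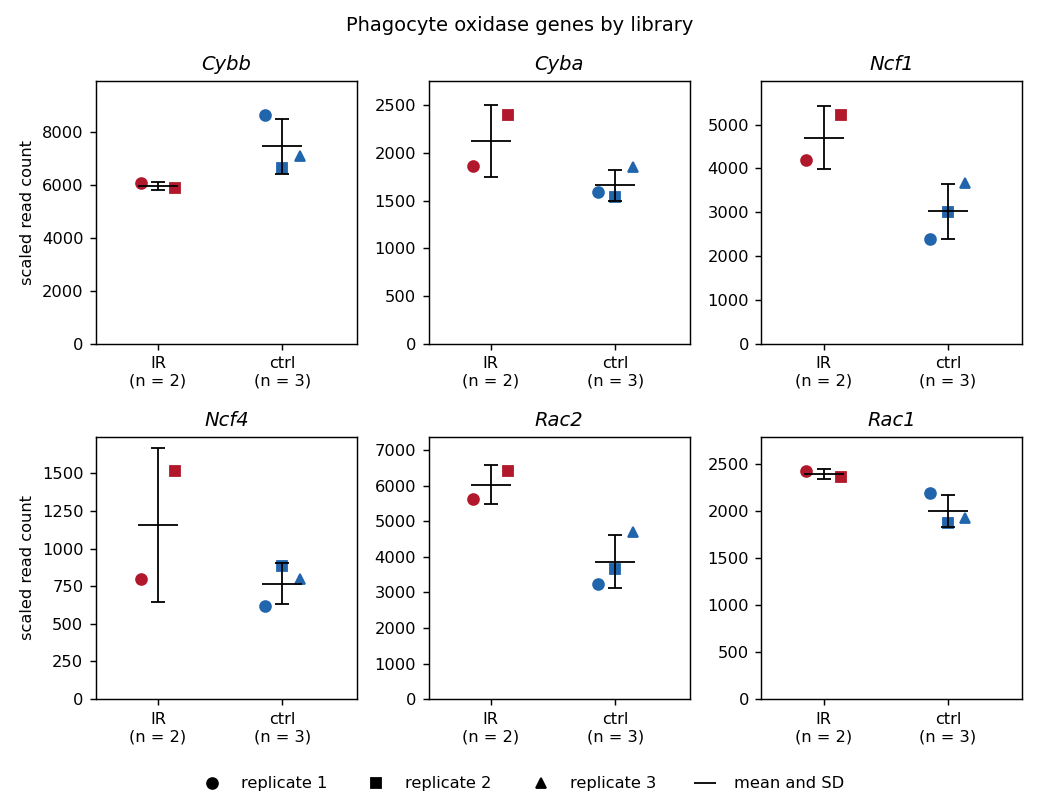
Scaled read count (vertical axes, each from 0) of the 6 oxidase genes in the 2 IR and 3 ctrl libraries; points are libraries, bars the mean and SD. Rac2 and Ncf1 lie higher in both IR libraries than in all 3 ctrl libraries, Cybb lies lower, and Ncf4 overlaps between the groups.

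The 2 chains of the membrane core had fold changes of opposite sign under the authors' scaling, neither past the test, and both were negative (Cybb -0.76, Cyba -0.09) when the libraries were scaled to 6 pan-leukocyte genes. Cybb, which carries the haem and flavin groups, had scaled counts of 6063 and 5867 in the IR libraries, against 8636, 6637 and 7098 in the ctrl libraries. The IR libraries lay close together and below all of ctrl, with ctrl replicate 1 the highest of the 5. The means were 5965 ± 138 in IR (SD, n = 2) and 7457 ± 1047 in ctrl (SD, n = 3); the log2 fold change, -0.31 ± 0.18 (SE), had a limma adjusted p of 0.435 and a 95% interval of -0.69 to 0.07. Cyba, the smaller chain that stabilises gp91phox and offers the docking site for p47phox, had 1862 and 2396 in IR, against 1592, 1537 and 1849 in ctrl. IR replicate 1 was barely above ctrl replicate 3. The means were 2129 ± 377 in IR (SD, n = 2) and 1659 ± 167 in ctrl (SD, n = 3); the log2 fold change, 0.35 ± 0.21 (SE), had a limma adjusted p of 0.432 and a 95% interval of -0.07 to 0.78.

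A ratio of 2 genes within a library does not depend on its scaling if that was 1 factor per library. The scaling method was not given, so this is an assumption. Cybb exceeded Cyba 3.26-fold and 2.45-fold in the IR libraries, against 5.42-fold, 4.32-fold and 3.84-fold in the ctrl libraries, so the groups did not overlap. On the log2 scale the ratio averaged 1.50 ± 0.29 in IR (SD, n = 2) and 2.16 ± 0.25 in ctrl (SD, n = 3), a difference of -0.67. The two-sided exact permutation test gave p = 0.1, the smallest p that 10 splits of 5 libraries allow, and 0.3 after Benjamini-Hochberg adjustment over the 3 ratios tested. With a library left out the difference ran from -0.87 (without IR replicate 1) to -0.46 (without IR replicate 2).

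**Figure D2:**
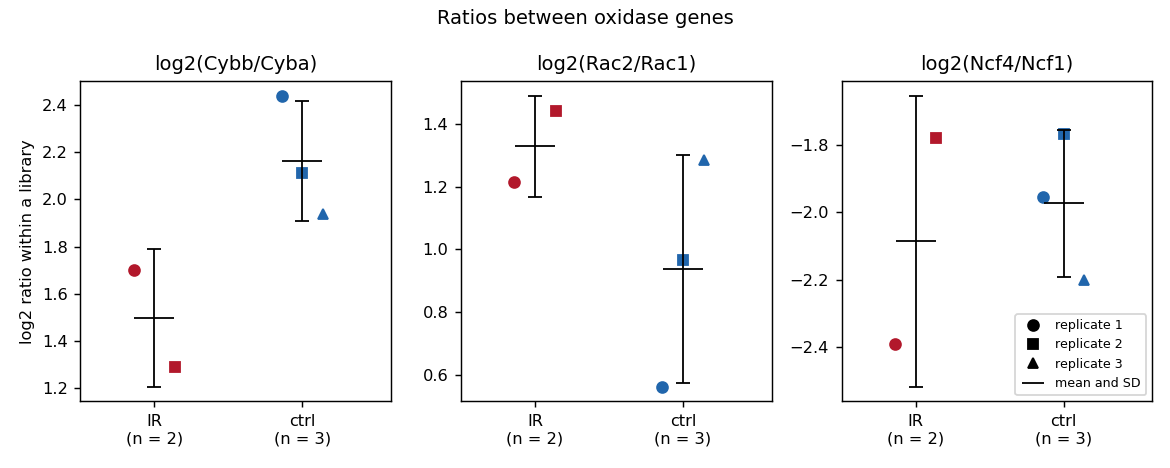
Log2 ratio within each library for 3 pairs of oxidase genes in IR (n = 2) and ctrl (n = 3); points are libraries, bars the mean and SD, and the vertical axes do not start at 0. The Cybb to Cyba ratio is lower in both IR libraries than in every ctrl library, while the other 2 ratios overlap between the groups.

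RefSeq promoter entries (GRCm38.p6) existed for 3 of the 6 genes, Cybb, Cyba and Ncf1, and the upstream sequences of all 3 are shown. The 250 bases before the start site are printed, 5′ to 3′ on the gene's strand. They come from chrX:9469325-9469574, chr8:122432941-122433190 and chr5:134229626-134229875, all on the minus strand. Capitals mark CCAAT or GGGCGG on either strand; in Ncf1 the match is on the opposite strand and reads CCGCCC.
Cybb: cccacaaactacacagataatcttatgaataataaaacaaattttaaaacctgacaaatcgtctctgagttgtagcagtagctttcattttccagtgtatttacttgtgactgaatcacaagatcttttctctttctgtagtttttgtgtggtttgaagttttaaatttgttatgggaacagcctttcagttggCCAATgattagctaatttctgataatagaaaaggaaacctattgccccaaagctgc
Cyba: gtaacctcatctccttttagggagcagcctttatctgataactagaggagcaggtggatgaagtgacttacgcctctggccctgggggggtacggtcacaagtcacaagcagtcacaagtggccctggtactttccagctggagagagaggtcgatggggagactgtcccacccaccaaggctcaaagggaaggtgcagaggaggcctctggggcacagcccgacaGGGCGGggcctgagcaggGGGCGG
Ncf1: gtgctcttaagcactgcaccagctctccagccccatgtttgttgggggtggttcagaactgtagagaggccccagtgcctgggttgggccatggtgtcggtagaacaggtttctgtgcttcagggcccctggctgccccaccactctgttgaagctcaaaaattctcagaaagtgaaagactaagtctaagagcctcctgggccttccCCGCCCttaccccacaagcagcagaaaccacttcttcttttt
Cybb held 1 CCAAT, 56 to 52 bases before its start, and no GGGCGG, the GC box. Cyba held 2 GC boxes, at 24 to 19 and 6 to 1 bases before the start, and Ncf1 held 1, at 42 to 37 bases; neither held CCAAT. The string GAGGAA, a longer form of the site for the myeloid factor PU.1, was in none of the 3 windows. Other forms, such as the shorter GGAA, were not searched for. Among all 32851 promoter windows of that length in the table, 33.8% held CCAAT, 32.7% GGGCGG and 23.3% GAGGAA on either strand. Bases G and C made up 34.0% of the Cybb window, 60.0% of that of Cyba and 54.4% of that of Ncf1, beside a median of 52.4% over all windows. A match is a string of letters and was not tested as a binding site.

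The cytosolic subunits Ncf1 and Ncf4 had positive fold changes, neither past the test, and Ncf1 had the larger one (0.65, against 0.54 for Ncf4) except without IR replicate 1 (0.81, against 1.0). Ncf1 encodes p47phox, the organiser that is phosphorylated on activation and carries the others to the membrane. Its scaled counts were 4187 and 5211 in the IR libraries, against 2398, 3013 and 3657 in the ctrl libraries. Both IR libraries lay above ctrl, although the gap from IR replicate 1 to ctrl replicate 3 was smaller than the spread within ctrl. The means were 4699 ± 725 in IR (SD, n = 2) and 3022 ± 630 in ctrl (SD, n = 3); the log2 fold change, 0.65 ± 0.21 (SE), had a limma adjusted p of 0.119 and a 95% interval of 0.23 to 1.07, and 17.4% of all genes had a higher fold change.

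Ncf4 encodes p40phox, which binds a phosphoinositide of the phagosome membrane. It had 797 and 1516 in the IR libraries, against 619, 884 and 795 in the ctrl libraries. IR replicate 1 fell among the ctrl libraries, and IR replicate 2 alone stood high. The log2 fold change, 0.54 ± 0.26 (SE) with a limma adjusted p of 0.341, was 0.07 without IR replicate 2 and 1.0 without IR replicate 1. The log2 ratio of Ncf4 to Ncf1 was -2.39 and -1.78 in IR, against -1.95, -1.77 and -2.20 in ctrl, a difference of -0.11 that turned to 0.19 without IR replicate 1 (two-sided exact permutation p = 0.6, and 0.6 after adjustment).

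The Rac GTPases are the switch that completes the active enzyme. Rac2, the form made mainly in blood cells, had scaled counts of 5629 and 6413 in the IR libraries, against 3234, 3666 and 4682 in the ctrl libraries. The groups did not overlap, and the distance between the lowest IR and the highest ctrl library was smaller than the range within ctrl. The means were 6021 ± 554 in IR (SD, n = 2) and 3861 ± 743 in ctrl (SD, n = 3); the log2 fold change, 0.66 ± 0.20 (SE), had a limma adjusted p of 0.0942 and a 95% interval of 0.25 to 1.06, next to 0.65 for Ncf1. Rac1, the form made in nearly every cell, had 2426 and 2356 in IR, against 2191, 1875 and 1920 in ctrl. It was the steadiest of the 6 across the 5 libraries, with an SD of 0.17 on the log2 scale beside 0.22 for Cybb and 0.48 for Ncf4. Its fold change, 0.26 ± 0.20 (SE, log2 scale), had a limma adjusted p of 0.561 and a 95% interval of -0.14 to 0.67.

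Rac2 exceeded Rac1 2.32-fold and 2.72-fold in the IR libraries, against 1.48-fold, 1.95-fold and 2.44-fold in the ctrl libraries. IR replicate 1 lay below ctrl replicate 3, so the groups overlapped. The difference of the log2 ratio was 0.39 (two-sided exact permutation p = 0.3, and 0.45 after adjustment) and ran from 0.20 without ctrl replicate 1 to 0.57 without ctrl replicate 3. Rac1 shares its exons with Daglb, a lipase gene on the opposite strand, over up to 2309 bases, and 55.0% of the 50-base stretches of its transcript also occur in Daglb transcripts, read on either strand. The strand setting of the counting is not given, so reads of the 2 genes may be mixed; Daglb itself had 394.5 and 158 in IR and 262.8 to 488.7 in ctrl. Ncf1 shares up to 222 exon bases with Gtf2ird2 in the same way, which had 112.2 and 75.6 in IR and 71.0 to 87.7 in ctrl.

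**Figure D3:**
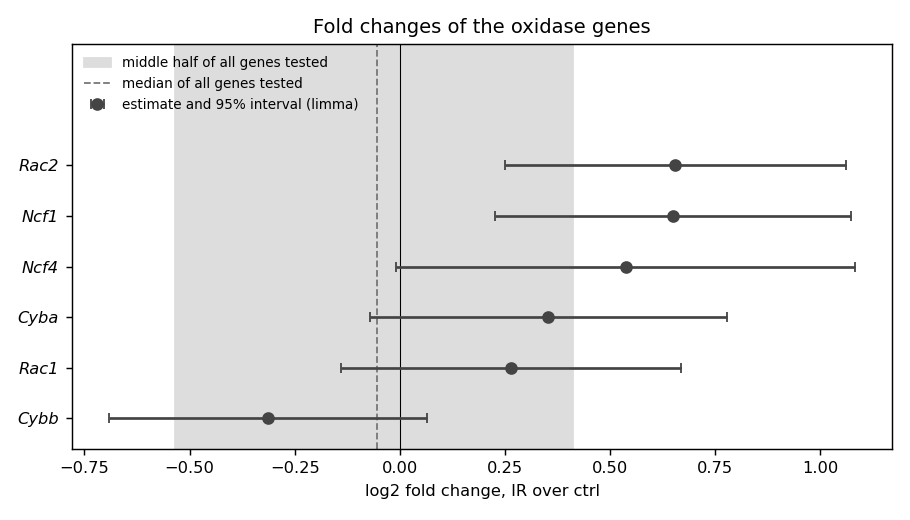
Log2 fold change of IR over ctrl (horizontal axis) for the 6 oxidase genes, with limma's 95% interval; the dashed line is the median of the 12777 genes tested and the grey band runs from their 25th to their 75th percentile. Rac2, at 0.66, Ncf1, at 0.65, and Ncf4, at 0.54, lie right of the band, and Cybb, at -0.31, lies inside it on the negative side.

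Leaving out IR replicate 1 brought Ncf1 (limma adjusted p = 0.0403), Ncf4 (0.0291) and Rac2 (0.0462) past the threshold, in a fit in which the lone IR library is assumed to vary like the ctrl libraries and which called 3.61% of all genes higher. Without IR replicate 2 the adjusted p of the 3 genes was 0.429, 0.953 and 0.306. In IR replicate 2 the summed neutrophil markers were also the highest of the 5 libraries, at 159580, against 81629 in IR replicate 1; their part in the values of Ncf1, Ncf4 and Rac2 was not tested.

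Setting each library to the geometric mean of 6 pan-leukocyte genes (Ptprc, Coro1a, Laptm5, Cd53, Lcp1 and Ptpn6) in place of the authors' scaling lowered the fold changes of all genes by a median of 0.44 on the log2 scale (shift -0.44). The authors' scaling had given these 6 genes a median log2 fold change of 0.37. Under it 1 of the 6, Lcp1, was itself called higher in IR (log2 fold change 0.93, limma adjusted p = 0.0152). On the pan-leukocyte scale Cybb fell (log2 fold change -0.76, limma adjusted p = 0.0111; 6.54% of all genes were called lower), against a median of -0.49 over all genes. Cyba (-0.09) and Rac1 (-0.18) turned negative, and Ncf1 (0.21), Ncf4 (0.09) and Rac2 (0.21) stayed positive, none of these 5 past the threshold. The direction of Cyba and Rac1 depended on what the libraries were scaled to.

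The order of the libraries was the same for Ncf1 and Rac2: IR replicate 2 highest, then IR replicate 1, then ctrl replicates 3, 2 and 1. The summed neutrophil markers had this order too, as did the sums of the NADPH supply genes and of the transcription factors described below, and 2.45% of all genes. Centred on their own means, the log2 profiles of Ncf1 and Rac2 differed by a root mean square of only 0.06, the closest of the 15 pairs among the 6 genes, and the next pair, Cyba and Rac1, differed by 0.19. Cybb had the largest distances, with 0.59 from Ncf4, 0.57 from Ncf1 and 0.55 from Rac2. It lay nearer to Cyba (0.39) and Rac1 (0.29). Its order began with ctrl replicates 1, 3 and 2 and ended with IR replicates 1 and 2. The 7 B cell markers, genes of another cell that expresses Cybb, summed to 6023 and 4721 in IR and 6109 to 10166 in ctrl, also lower in both IR libraries, with negative fold changes for all 7 (median -0.65). Of the 9 markers of alveolar macrophages, which express Cybb as well, 7 had negative fold changes (median -0.53). Markers of other cells that carry the oxidase went the other way. All 11 neutrophil markers had positive fold changes (median 1.37), as did 5 of the 8 monocyte markers (median 0.11). The part of these cells in the values of Cybb was not tested.

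By share of the summed scaled counts of the 6 genes, Cybb made up 28.9% and 24.7% in the IR libraries, against 46.3%, 37.7% and 35.5% in the ctrl libraries. Rac2 made up 26.9% and 27% in IR, against 17.3%, 20.8% and 23.4% in ctrl. Cyba kept a narrow range, at 8.88% and 10.1% in IR and 8.53% to 9.25% in ctrl. The total of the 6 was 20963 and 23759 in IR, against 18670, 17612 and 20000 in ctrl.

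Among 7257 other genes with a mean scaled count of at least 100, the profiles nearest to Cybb over the 5 libraries were those of Rrp8 (root mean square difference 0.03), a nucleolar methyltransferase, and Ctss (0.03), the cathepsin of antigen-presenting cells. Ctss had 8491 and 8438 in IR, against 12171, 8959 and 10111 in ctrl. Nearest to Cyba were Rap1b (0.03), a small GTPase, and Mapkapk2 (0.04), a kinase downstream of p38. Psmc5, a proteasome ATPase, was among the 2 nearest of both Ncf1 (0.03) and Rac2 (0.04), joined by Zfp706 for Ncf1 (0.05) and by Ctdsp2, a phosphatase, for Rac2 (0.02). For Ncf4 they were Fbxl5 (0.05), an iron-sensing part of a ubiquitin ligase, and Sh2d3c (0.05), an adaptor. For Rac1 they were Upf1 (0.04), a helicase of nonsense-mediated decay, and Hspa12a (0.04). These are descriptions over 5 libraries and carry no test.

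Divided by the length of 1 transcript a gene, Cyba had the highest level of the 6 genes in every library, with 2861 ± 507 scaled counts per kilobase in IR (SD, n = 2) and 2230 ± 224 in ctrl (SD, n = 3). In the IR libraries Rac2 (1982 ± 182 per kilobase) and Ncf1 (1701 ± 262) came next and overlapped with each other, above Cybb (1255 ± 29.1), Ncf4 (790 ± 347) and Rac1 (575 ± 11.8), of which Ncf4 and Rac1 overlapped. In the ctrl libraries Cybb (1569 ± 220 per kilobase) came second, and its libraries overlapped with those of Rac2 (1271 ± 245), which overlapped with those of Ncf1 (1094 ± 228). Ncf4 (523 ± 92.3) and Rac1 (480 ± 41.1) were lowest in ctrl and did not differ beyond their spread. The exon stretch that Rac1 shares with Daglb may have altered the count of Rac1, which was not tested. The lengths are those of the longest GENCODE vM21 transcript with a consensus coding sequence, from 744 bases for Cyba to 4752 for Cybb. With all annotated exon bases instead, Rac1 came before Ncf4 in ctrl (444 and 379 per kilobase), the order of the other 4 genes by group mean was the same, and in IR replicate 1 Rac2 (1814 per kilobase) exceeded Cyba (1792).

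**Figure D4:**
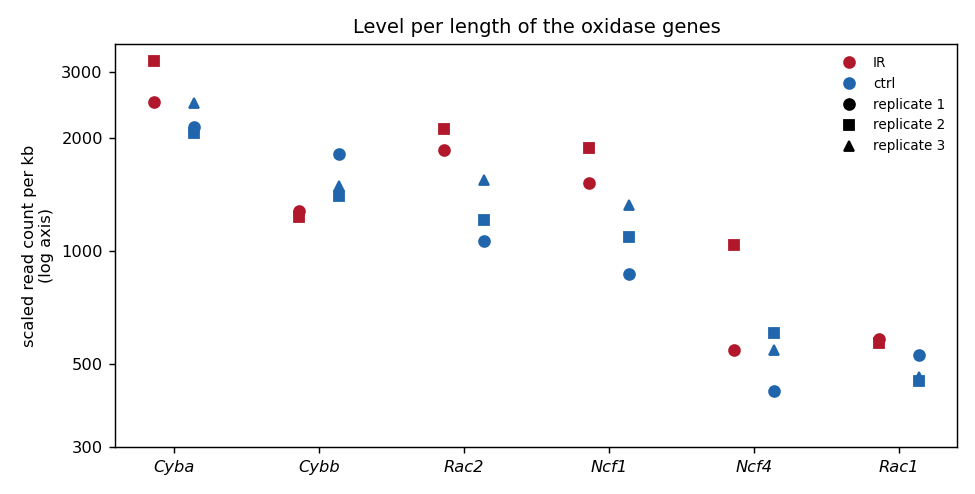
Scaled read count per kilobase of transcript (log axis) for the 6 oxidase genes, each IR and ctrl library shown as a point; genes run by their ctrl mean. By this length Cyba is highest in every library, and Cybb comes second in the ctrl mean and below Rac2 and Ncf1 in the IR mean.

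The genes lie on 4 chromosomes of GRCm38. Cybb is on X (9435252 to 9487771), Cyba on 8 (122424776 to 122432930), Ncf1 on 5 (134220053 to 134229625) and Rac1 on 5 (143503634 to 143528036). Ncf4 (78244801 to 78262580) and Rac2 (78559167 to 78572783) are both on 15, and their profiles differed by 0.29, against 0.06 for Rac2 and Ncf1.

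The wider pathway was followed through 6 lists. Of 14 genes, receptors that trigger the oxidase and their kinase Syk, 2 rose, 0 fell and 12 did not pass, and all 14 had positive fold changes, with a median log2 fold change of 0.74; over all genes 1.14% rose and 46.8% had a positive fold change. With pan-leukocyte scaling the median was 0.30, with 3 of the 14 negative. C5ar1, the receptor for the complement fragment C5a, had 2437 and 3543 in IR, against 975, 1326 and 1458 in ctrl; the log2 fold change, 1.25 ± 0.22 (SE), had a limma adjusted p of 0.00430. Itgam, the integrin chain CD11b, rose by 0.79 ± 0.19 (0.0391). Itgb2, its partner CD18, had a log2 fold change of 0.44, Clec7a, the beta-glucan receptor Dectin-1, of 0.75, and Syk of 0.12 (limma adjusted p = 0.234, 0.115 and 0.818). Neutrophils express C5ar1, Itgam and Itgb2, and the summed neutrophil markers were 81629 and 159580 in IR, against 33732 to 58740 in ctrl; their part was not tested.

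Of 15 partners and regulators, 0 rose and 0 fell under limma, 3 had an unadjusted p under 0.05 (15.0% of all genes did), and the median log2 fold change was 0.12. With pan-leukocyte scaling that median was -0.32. Cybc1, which the flavocytochrome needs to be made, had 439 and 472 in IR, against 284, 290 and 372 in ctrl (log2 fold change 0.54, limma adjusted p = 0.405). Arhgdib, the inhibitor that holds Rac in the cytosol, had 5023 and 5323 in IR, against 3576, 3254 and 4122 in ctrl (0.51, adjusted p = 0.189). The exchange factors Prex1 and Dock2, which load Rac with GTP, differed by 0.33 and -0.15 on the log2 scale (limma adjusted p = 0.406 and 0.738). Hvcn1, the proton channel that offsets the charge the oxidase moves, had 1899 and 1679 in IR, against 2211, 1772 and 2933 in ctrl (-0.34, adjusted p = 0.491).

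Enzymes that supply NADPH made up 8 genes, of which 1 rose, 0 fell and 7 did not pass, with a median log2 fold change of 0.57 (0.12 with pan-leukocyte scaling). Taldo1, transaldolase of the pentose phosphate pathway, had 5766 and 7899 in IR, against 3476, 3655 and 4220 in ctrl; the log2 fold change, 0.84 ± 0.19 (SE), had a limma adjusted p of 0.0276. In 7 of the 8 genes both IR libraries lay above all ctrl libraries; 15.2% of all genes did so. Nadk, which makes NADP, had a log2 fold change of 0.65, Tkt, transketolase, of 0.48 and Pgd, which yields NADPH, of 0.48 (limma adjusted p = 0.107, 0.233 and 0.294).

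Of 16 genes that remove oxidants, 14 were tested: 2 rose, 0 fell and 12 did not pass, with a median log2 fold change of 0.38 that was -0.06 with pan-leukocyte scaling. Prdx6, a peroxiredoxin abundant in lung, had 3645 and 3060 in IR, against 1367, 1393 and 1661 in ctrl; the log2 fold change, 1.19 ± 0.20 (SE), had a limma adjusted p of 0.00306. Cat, catalase, had 2064 and 1714 in IR, against 1032, 761 and 1299 in ctrl (0.90 ± 0.23, adjusted p = 0.0478). Both had their top value in IR replicate 1, as did Scgb1a1 (103972, against 50989 in IR replicate 2), whereas the epithelial marker Epcam was lowest there (45.8, against 74.8 in IR replicate 2). Of the 10 epithelial markers 8 had positive fold changes; the part of epithelial RNA was not tested. Prdx5, Sod1 and Gpx1 differed by 0.79, 0.45 and 0.14 on the log2 scale (limma adjusted p = 0.0684, 0.337 and 0.772).

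Among 6 transcription factors of the PU.1, IRF and C/EBP families, several of which are known to act on oxidase genes, 2 rose, 0 fell and 4 did not pass, with a median log2 fold change of 0.52 (0.08 with pan-leukocyte scaling). Spi1, which encodes PU.1, had 3889 and 6456 in IR, against 2639, 2936 and 3020 in ctrl; the log2 fold change, 0.81 ± 0.21 (SE), had a limma adjusted p of 0.0494. Cebpb had 21705 and 29561 in IR, against 12479, 14548 and 15968 in ctrl (0.83 ± 0.18, adjusted p = 0.0223). Irf8, a factor of monocytes, macrophages and B cells, had 2572 and 2468 in IR, against 3363, 2742 and 2871 in ctrl. It was lower in both IR libraries, as were 16.3% of all genes, and it did not pass (-0.24 ± 0.19, limma adjusted p = 0.596). Of the 6 factors 5 had positive fold changes, and Irf8 alone a negative one. Irf1 and Cebpa differed by 0.23 and 0.07 on the log2 scale (limma adjusted p = 0.649 and 0.918).

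Of 10 genes of other NADPH oxidases, 4 had values here and the other 6 were not analysed here. Of the 4, 3 were tested and none passed under limma, with 0 at an unadjusted p under 0.05. Noxo1 and Noxa1, organiser and activator of Nox1, had at most 22.8 and 32.9 in any library. Rac3 had 137.5 and 1.6 in IR, against 12.6, 27.4 and 27 in ctrl, so the pair of IR libraries lay on either side of ctrl.

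All 7 pathway genes that rose (C5ar1, Itgam, Taldo1, Prdx6, Cat, Spi1 and Cebpb) missed the limma threshold without ctrl replicate 1 (adjusted p = 0.0678 to 0.301) and without ctrl replicate 2 (0.0517 to 0.225). Itgam, Taldo1, Cat, Spi1 and Cebpb also missed it without IR replicate 2 (0.0561 to 0.482) and without ctrl replicate 3 (0.0663 to 0.171), and Cat without IR replicate 1 (0.106). Of 16 alternatives run, Cat missed the threshold in 13 and Spi1 in 12. Both did so after scaling to library totals (0.0729 for Cat and 0.0539 for Spi1), with a pseudocount of 0.5 (0.0541 and 0.0552), with no filter on low values (0.0689 and 0.0668) and with a minimum value of 50 (0.0506 and 0.0554). Cat also missed it with array weights (0.0956), Spi1 with median-ratio factors (0.05) and Itgam with no filter (0.0515). With pan-leukocyte scaling (0.131 to 0.27) and with robust estimation off (0.0504 to 0.0775) Itgam, Taldo1, Cat, Spi1 and Cebpb missed it, and without the mean trend all 7 did (0.436 to 0.526).

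**Figure D5:**
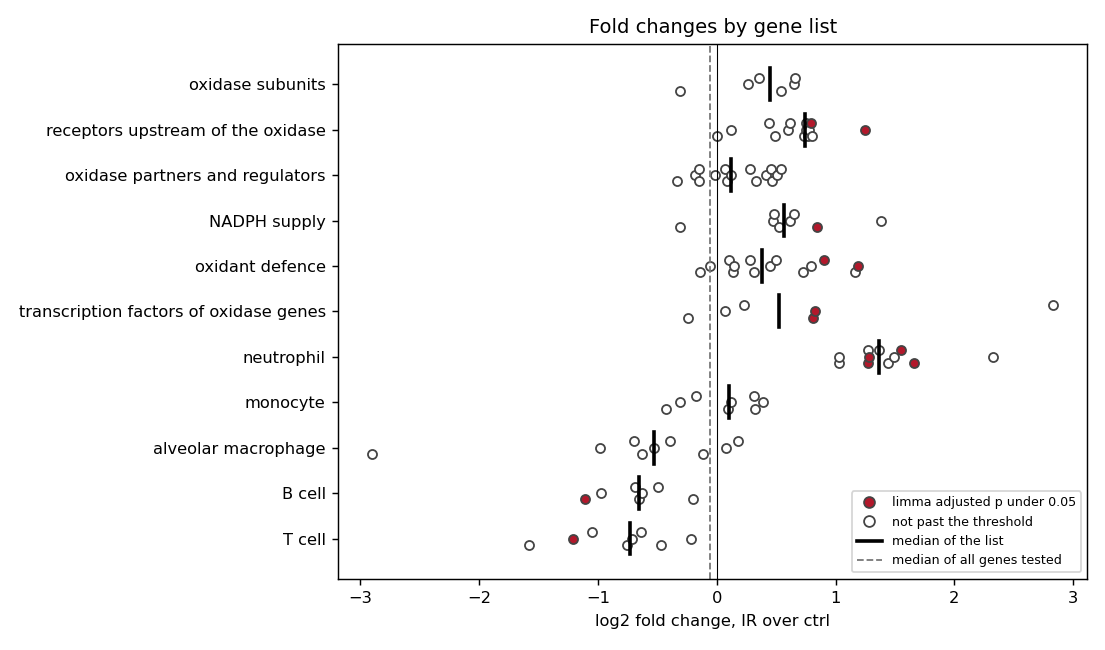
Log2 fold change of IR over ctrl (horizontal axis) for the oxidase subunits, 5 lists of related genes and 5 lists of cell type markers; each point is a gene, filled where its limma adjusted p is under 0.05, thick bars are list medians and the dashed line is the median of all genes tested. The oxidase subunits hold no filled point and have a median of 0.44, beside 1.37 for the neutrophil markers and 0.11 for the monocyte markers.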

How the data were processed

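The libraries were prepared with a SMARTer Pico kit for stranded total RNA, per the labels' protocols. The submitters' processing notes name HISAT2, HTSeq and mm10 with no version and no role; the annotation, the strand setting and the scaling method were not given in any source here. The deposited values carry 1 decimal and have similar medians, so they were taken as a signal scaled by the authors from counts and not as raw counts, and no counting error could be derived from them.

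The treatment label gave 2 IR and 3 ctrl libraries, numbered in accession order. A gene was kept (12777 were) if 2 or more libraries had a value of 10 or higher. Values plus 1 were log2-transformed and a limma model (version 3.58.1 in R 4.3.3) with mean trend and robust estimation, and no covariate, was fitted to all genes; tests were two-sided, with Benjamini-Hochberg adjustment over all genes and a threshold of 0.05. Adding 1 understates the fold change of low genes. The procedure was tested on simulated data. Ratios were compared by an exact permutation test. GENCODE vM21 (GRCm38, equivalent to mm10) held 14105 of the 14457 symbols and gave positions and lengths. The 6 genes and the lists were chosen with earlier results of these data known. Besides the 6, the text names the genes of each pathway list that were called and up to 3 more with the highest mean, and the 2 nearest profiles of each of the 6, and 1 gene of the partner list is not reported here; Cybc1, Hvcn1, Daglb, Gtf2ird2, Chil3, Fabp4 and Epcam were named after their values were seen.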

Additional observations from a re-analysis of the deposited data

How the results depend on the processing

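Of the 6 oxidase genes, 0 passed the limma test under the deposited scaling, after scaling to library totals, with TMM or median-ratio factors, with a pseudocount of 0.5 or 10, with no filter or a minimum of 50, with robust estimation off, without the mean trend and with array weights. With pan-leukocyte scaling 1 passed, and with a library left out between 0 and 3 did. The count over all genes was 192 (146 higher, 76.0%), 926 with pan-leukocyte scaling (90 higher, 9.72%), 257 after scaling to library totals (141 higher, 54.9%), which shifted the median of all genes by -0.12, 314 with a pseudocount of 10, 0 without the mean trend (1245 at an unadjusted p under 0.05) and from 19 to 1006 with a library left out. Those counts were 19, 23 and 95 when the library was ctrl replicate 1, 2 or 3, and 1006 and 96 when it was IR replicate 1 or 2. The causes were not tested.

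Log2 fold changes that changed sign were, with pan-leukocyte scaling, those of Cyba (-0.091), Rac1 (-0.18), Prex1 (-0.12), Gpx1 (-0.30), Itgb2 (-0.0040), Syk (-0.33), Irf1 (-0.21) and Cebpa (-0.38). After scaling to library totals they were Syk (-0.0051) and Cebpa (-0.054), and with a pseudocount of 10 Rac3 (0.39). With a library left out Rac3 ran from -3.09 to 2.65, Noxo1 from -3.87 to 0.50, Noxa1 from -2.99 to 1.35, Syk from -0.12 to 0.35 and Cebpa from -0.22 to 0.36, and the difference in the log2 ratio of Ncf4 to Ncf1 ran from -0.42 to 0.19. The other 2 ratios kept their sign under every alternative run. Of named genes not called, Dock2 (limma adjusted p = 0.0355) and Irf8 (0.0425) passed with pan-leukocyte scaling, Prdx5 (0.0443) with a pseudocount of 10, and Nadk (0.019), Prdx5 (0.00959) and Clec7a (0.00336) without IR replicate 1. No paired analysis was possible because the labels give no replicate numbers. Depth per gene in reads is unknown, since the values were taken as scaled.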
